A study of Mus musculus with 13 samples.

Results

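The imprinted genes described here are 39 genes of 20 imprinted loci, chosen by name from the imprinted genes of the mouse and grouped by locus and by the parental allele they are known to express. Of the 39 genes, 23 are known as paternally expressed, 15 as maternally expressed, and Gnas is expressed from either allele depending on the transcript. A probe was matched to 37 of them, Meg3 and Rian being without a matched probe, and 33 were bright enough to test, out of 22967 features tested on the array, 14661 of them with a gene symbol. Mouse embryonic stem cell (ESC) lines derived from C57Bl/6 mice and kept on gelatin in N2B27 medium without serum, with LIF and inhibitors of MEK (PD0325901) and GSK3, were profiled on 1-colour arrays. The 2ac lines, named cl4, cl5 and cl6, were homozygous for floxed Jmjd2a (f/f) and floxed Jmjd2c (f/f). The 2abc lines were homozygous for these and also for floxed Jmjd2b (f/f), and were named cl280.4 for one line, cl324.9 for another and cl324.13 for the last. Both genotypes carried Rosa26::CreERT2, a tamoxifen-inducible Cre at a locus that is active in all cell types. Each line gave a control culture, grown without OHT (the active tamoxifen metabolite that switches on CreERT2), and an OHT culture, which had 500 nM OHT for 12 days followed by 6 days before harvest. This makes 4 groups of 3 samples, in which the controls carry the same floxed alleles and the same Cre as the treated cultures. Every OHT culture carried floxed Jmjd2 genes, so exposure to OHT, activity of Cre and loss of the demethylases cannot be told apart here.

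Genomic imprinting is the expression of a gene from the copy of one parent only, set by DNA methylation that is laid down in the germ line at imprinting control regions and kept through early development. In several imprinted domains a long noncoding RNA expressed from the paternal copy, such as Kcnq1ot1 or Airn, silences neighbouring genes on that copy, while others, such as the Igf2/H19 domain, use an insulator bound by CTCF. The Jmjd2 (Kdm4) proteins remove methyl groups from lysines 9 and 36 of histone H3, and H3K9 methylation is a mark of the silent allele at imprinting control regions. ESCs are known for unstable imprints in culture, particularly in medium with both inhibitors. The probes read total RNA of a gene and do not tell the parental alleles apart.

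The RefSeq windows upstream of the start sites show what the members have in common and where they differ in sequence. A window of 250 bases was present for 34 of the 39 genes, 52 windows in all, and H19, Cdkn1c, Peg10, Sgce and Impact are named only. The windows were searched on both strands for TGCCGC, the core of the motif that the zinc-finger protein ZFP57 is known to bind when its CpG is methylated. It was present in a window of 7 of the 34 genes (20.6%; Zdbf2, Mest, Nap1l5, Plagl1, Mcts2, Zim1 and Meg3), and in 9.84% of 27025 RefSeq genes searched the same way. By window, 8 of 52 held it, against 8.68% of 32851 windows of all genes, and the median number of CpG dinucleotides was 10.0 in the windows of these genes and 6.0 in all windows. These are matches of letters, and absence of a match concerns only these windows. The upstream windows of 8 genes whose levels changed are printed 5′ to 3′, with TGCCGC or its reverse complement GCGGCA in capitals. The first 4 hold the motif and the last 4 do not.
Mest (GRCm38.p6 chr6:30737800-30738049, plus strand): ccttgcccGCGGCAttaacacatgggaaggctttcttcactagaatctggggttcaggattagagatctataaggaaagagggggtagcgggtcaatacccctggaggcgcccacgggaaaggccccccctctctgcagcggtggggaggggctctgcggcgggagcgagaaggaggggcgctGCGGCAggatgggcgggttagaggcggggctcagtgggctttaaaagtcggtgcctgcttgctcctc
Zdbf2 (GRCm38.p6 chr1:63200108-63200357, plus strand): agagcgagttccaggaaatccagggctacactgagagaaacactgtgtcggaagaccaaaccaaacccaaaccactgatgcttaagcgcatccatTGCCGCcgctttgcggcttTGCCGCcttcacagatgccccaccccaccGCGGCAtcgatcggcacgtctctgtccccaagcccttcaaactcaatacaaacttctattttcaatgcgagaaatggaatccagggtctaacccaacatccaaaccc
Nap1l5 (GRCm38.p6 chr6:58907127-58907376, minus strand): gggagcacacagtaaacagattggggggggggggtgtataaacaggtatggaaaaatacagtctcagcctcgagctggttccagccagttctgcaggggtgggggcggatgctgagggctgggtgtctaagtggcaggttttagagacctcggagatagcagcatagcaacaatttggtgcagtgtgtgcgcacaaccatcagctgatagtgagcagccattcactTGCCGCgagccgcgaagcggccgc
Plagl1 (GRCm38.p6 chr10:13090582-13090831, plus strand): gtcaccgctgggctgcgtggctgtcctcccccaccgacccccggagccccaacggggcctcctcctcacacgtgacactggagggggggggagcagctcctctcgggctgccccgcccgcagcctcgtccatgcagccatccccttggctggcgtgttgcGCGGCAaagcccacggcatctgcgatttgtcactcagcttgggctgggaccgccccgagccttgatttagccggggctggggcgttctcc
Peg3 (GRCm38.p6 chr7:6730420-6730669, minus strand): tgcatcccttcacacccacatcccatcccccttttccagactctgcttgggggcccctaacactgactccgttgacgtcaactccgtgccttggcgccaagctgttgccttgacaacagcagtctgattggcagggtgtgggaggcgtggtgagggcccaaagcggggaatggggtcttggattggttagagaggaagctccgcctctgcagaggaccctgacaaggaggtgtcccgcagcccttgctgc
Magel2 (GRCm38.p6 chr7:62376729-62376978, plus strand): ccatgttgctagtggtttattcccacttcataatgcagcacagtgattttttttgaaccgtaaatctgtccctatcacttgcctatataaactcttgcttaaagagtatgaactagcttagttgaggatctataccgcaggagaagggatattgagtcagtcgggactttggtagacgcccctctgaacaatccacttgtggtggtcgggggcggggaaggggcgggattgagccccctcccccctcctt
Sfmbt2 (GRCm38.p6 chr2:10372186-10372435, plus strand): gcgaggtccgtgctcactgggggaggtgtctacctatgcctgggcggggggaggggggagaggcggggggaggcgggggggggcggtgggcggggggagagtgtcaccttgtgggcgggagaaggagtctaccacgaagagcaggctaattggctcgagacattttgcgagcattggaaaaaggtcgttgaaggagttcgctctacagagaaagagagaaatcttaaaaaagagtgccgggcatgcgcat
Ascl2 (GRCm38.p6 chr7:142969265-142969514, minus strand): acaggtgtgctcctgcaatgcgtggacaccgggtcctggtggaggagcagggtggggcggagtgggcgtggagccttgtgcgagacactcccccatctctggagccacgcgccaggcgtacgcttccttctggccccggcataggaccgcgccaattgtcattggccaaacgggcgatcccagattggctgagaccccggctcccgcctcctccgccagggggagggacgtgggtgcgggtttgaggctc

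The printed Mest window carried 2 matches, the printed Zdbf2 window 3, and the Nap1l5 and Plagl1 windows 1 each. Zdbf2 and Mest also have windows at other start sites. That of Zdbf2 at chr1:63273019-63273268, with 26 CpG dinucleotides, and that of Mest at chr6:30733256-30733505 held 0 matches. A further Mest window, at chr6:30737803-30738052, nearly coincides with the printed one and holds the same 2 matches. Both are counted among the 8 windows with the motif, so these are not independent. The Peg3 window overlaps that of Usp29, which is transcribed the other way (chr7:6730333-6730582, plus strand). Several members are also hosts of microRNAs, whose mature forms these arrays were not used to measure. Mest holds the hairpin of miR-335 and H19 that of miR-675, and 10 hairpins with 19 mature forms lie within Mirg, whose 18 distinct seeds include 1 seed shared by miR-453 and miR-496a-5p. Their mature sequences are given with the seed, bases 2 to 8, in capitals.
miR-335-5p (Mest): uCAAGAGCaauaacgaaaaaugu
miR-335-3p (Mest): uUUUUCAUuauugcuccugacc
miR-675-5p (H19): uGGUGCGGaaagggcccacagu
miR-675-3p (H19): cUGUAUGCccuaaccgcucagu
miR-453 (Mirg): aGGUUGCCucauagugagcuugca
miR-496a-5p (Mirg): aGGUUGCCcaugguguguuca

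Well above background were 50.1 to 63.9% of the 55681 probes on an array, with no saturated spot among the 13 arrays. Kdm4c (Jmjd2c) changed by -2.90 log2 in 2ac and -3.21 in 2abc, Kdm4b (Jmjd2b) by 0.12 and -2.22, and Kdm4a (Jmjd2a) by -0.74 and -0.67, and whether the floxed exons hold these probes was not tested. All 10 ESC markers were well above background on every array, and 0 were called higher and 2 lower in 2ac, and 0 higher and 4 lower in 2abc. Their summed signal, in multiples of the 75th percentile of the array, was 694 to 799 in control and 672 to 763 in OHT cultures of 2ac, and 696 to 724 and 642 to 668 in 2abc, where the groups did not overlap. Of 6 neural markers, 4 were called higher in 2ac and 4 in 2abc, and their summed signal was 5.39 to 7.96 in control and 9.90 to 13.4 in OHT cultures. All 6 were above background on every OHT array, but in each genotype only 4 on every control array, and Pax6 on no 2abc control array. Some neural markers may thus have entered the tests only through the OHT cultures, where they are higher. Of 4 tested primitive endoderm markers, 1 was called higher and 2 lower over the 6 lines, with a summed signal of 301 to 307 in control and 202 to 262 in OHT cultures of 2ac, and 295 to 322 and 228 to 284 in 2abc. Of 6 tested trophectoderm markers 1 was called higher in each genotype, with sums of 22.4 to 31.3 in control and 26.0 to 34.7 in OHT cultures. The part of these markers in the changes of the imprinted genes was not tested. Of 10 feeder fibroblast markers, 6 were above background on every control array and, in each genotype, 5 on every OHT array. Postn was above background on no array. The 10 summed to 2.80 to 3.67 in control and 3.09 to 7.09 in OHT cultures of 2ac. In 2abc they summed to 4.21 to 4.98 and 3.86 to 4.01. Of 6 tested, 1 was called lower in 2ac and 1 higher in 2abc. Of 8 blood markers, 2 were above background on every array, and Hbb-b1 and Lyz2 on none. The 8 summed to 6.1 to 6.8 in control and 4.0 to 5.3 in OHT cultures of 2ac. In 2abc they summed to 6.1 to 7.5 and 3.2 to 4.9. Of 2 tested, 1 was called lower in 2abc. Beside these counts of called markers, 5.75% of all features were called higher and 6.5% lower in 2ac, and 8.59% and 9.03% in 2abc. Over the 6 lines, 14.0% of all features were called higher and 14.7% lower. In cultures measured in bulk, fewer cells of a type and less RNA per cell cannot be told apart.

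In the following, a log2 level is log2 of a probe's signal minus that of the 75th percentile of its array, and the 3 levels of a group stand in the order cl4, cl5, cl6 and cl280.4, cl324.9, cl324.13. A log2 change is OHT minus control of the same line, fitted with limma on all 12 samples with the line as a block, and a gene was called when its adjusted p (Benjamini-Hochberg over all 22967 features) was under 0.05. The replicates are the 3 lines of a genotype, which were established independently per the study's design. The names of cl324.9 and cl324.13 share a stem, and whether these lines are closer to each other than to cl280.4 was not tested. In 2ac, 6 of the 33 tested imprinted genes were called higher and 0 lower, where 12.3% of all features were called, 5.75% higher and 6.5% lower. In 2abc, 10 were called higher and 2 lower, where 17.6% of all features were called, 8.59% higher and 9.03% lower. That 0 members were lower in 2ac depended on the processing. Of the 26 members that could be tested from the authors' deposited values, 7 were called higher and 3 lower. With those values 3623 of 15484 features were called, 1738 higher and 1885 lower. Called higher and lower were 7 and 2 members after normexp background correction, and 4 and 1 with arrays scaled by the median. They were 7 and 1 of 29 tested among probes above background on every array, and 2 and 1 with 2ac fitted alone. Over all 6 lines, 15 rose (Sfmbt2, Mest, Magel2, Peg3, Kcnq1ot1, Nap1l5, H19, Mirg, Cdkn1c, Ndn, Impact, Zdbf2, Gnas, Sgce and Slc22a18), 3 fell (Ascl2, Plagl1 and Grb10) and 15 did not pass, where 28.7% of all features were called, 14.0% higher and 14.7% lower. Of the 15, Nap1l5 passed the brightness filter only through its OHT cultures, and Kcnq1ot1 was called by 1 probe and not by a brighter one. The median log2 change of the 33 genes was 0.28 in 2ac, 0.38 in 2abc and 0.31 in the mean of all lines, against 0.02, -0.02 and 0.00 for all features in the same order. Called in both genotypes were 4 genes, Mest, Sfmbt2, Peg3 and Magel2, all of them paternally expressed and higher after OHT, while 2 were called in 2ac alone, 8 in 2abc alone and 4 only over the 6 lines. By expressed allele, 10 of the 20 tested paternally expressed genes rose and 1 fell over the 6 lines, with a median log2 change of 0.40, and of the 12 maternally expressed genes 4 rose and 2 fell, with a median of 0.05. The difference between these 2 sets was not tested.

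In every line the median lay above 0. The median log2 change of the 33 genes was 0.29 in cl4, 0.27 in cl5, 0.23 in cl6, 0.23 in cl280.4, 0.26 in cl324.9 and 0.49 in cl324.13, with 21 to 25 of the 33 genes above 0. The median of all features was 0.05, 0.08, -0.09, 0.01, -0.09 and 0.01 in the same order. In 2ac the OHT levels lay above all control levels for 13 of the 33 genes and below for 2, where 15.3% and 15.4% of all features did so. In 2abc they lay above for 9 and below for 4, where 18.7% and 22.0% of all features did so. The change was upward in all 6 lines for 15 genes and downward in all 6 for 3, where 14.3% and 16.1% of all features behaved this way. The calls depended on single lines, over all features as well as among these genes. Without cl324.9 or without cl324.13 0 of the 12 calls in 2abc passed in limma, with 14 and 12 members at an unadjusted p under 0.05, and the calls in 2ac numbered 1 without cl5, 2 without cl4 or cl324.9, 3 without cl324.13, 4 without cl6 and 7 without cl280.4. Over all 22967 features the calls in 2abc numbered 247 without cl324.9 and 218 without cl324.13, against 4046 with every line, and those in 2ac 157 without cl5 and 343 without cl4, against 2814. Over the 6 lines the calls numbered 9 without cl324.13, 10 without cl324.9 or cl4, 11 without cl5, 18 without cl6 and 19 without cl280.4. H19, Ascl2, Kcnq1ot1, Peg3, Mest, Magel2 and Sfmbt2 passed over the 6 lines whichever line was left out. With no line block, Ndn lost its call in 2ac (adjusted p = 0.185), Mest, Impact, Sgce and Slc22a18 lost theirs in 2abc (adjusted p of up to 0.25), and Impact, Ndn, Plagl1, Sgce, Slc22a18 and Zdbf2 lost theirs over the 6 lines (adjusted p of up to 0.273). When slide was the blocking term instead, the calls lost were those of Mest, Impact, Sgce and Slc22a18 in 2abc (adjusted p of up to 0.234) and of Impact, Sgce, Slc22a18 and Zdbf2 over the 6 lines (adjusted p of up to 0.283).

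**Figure D1:**
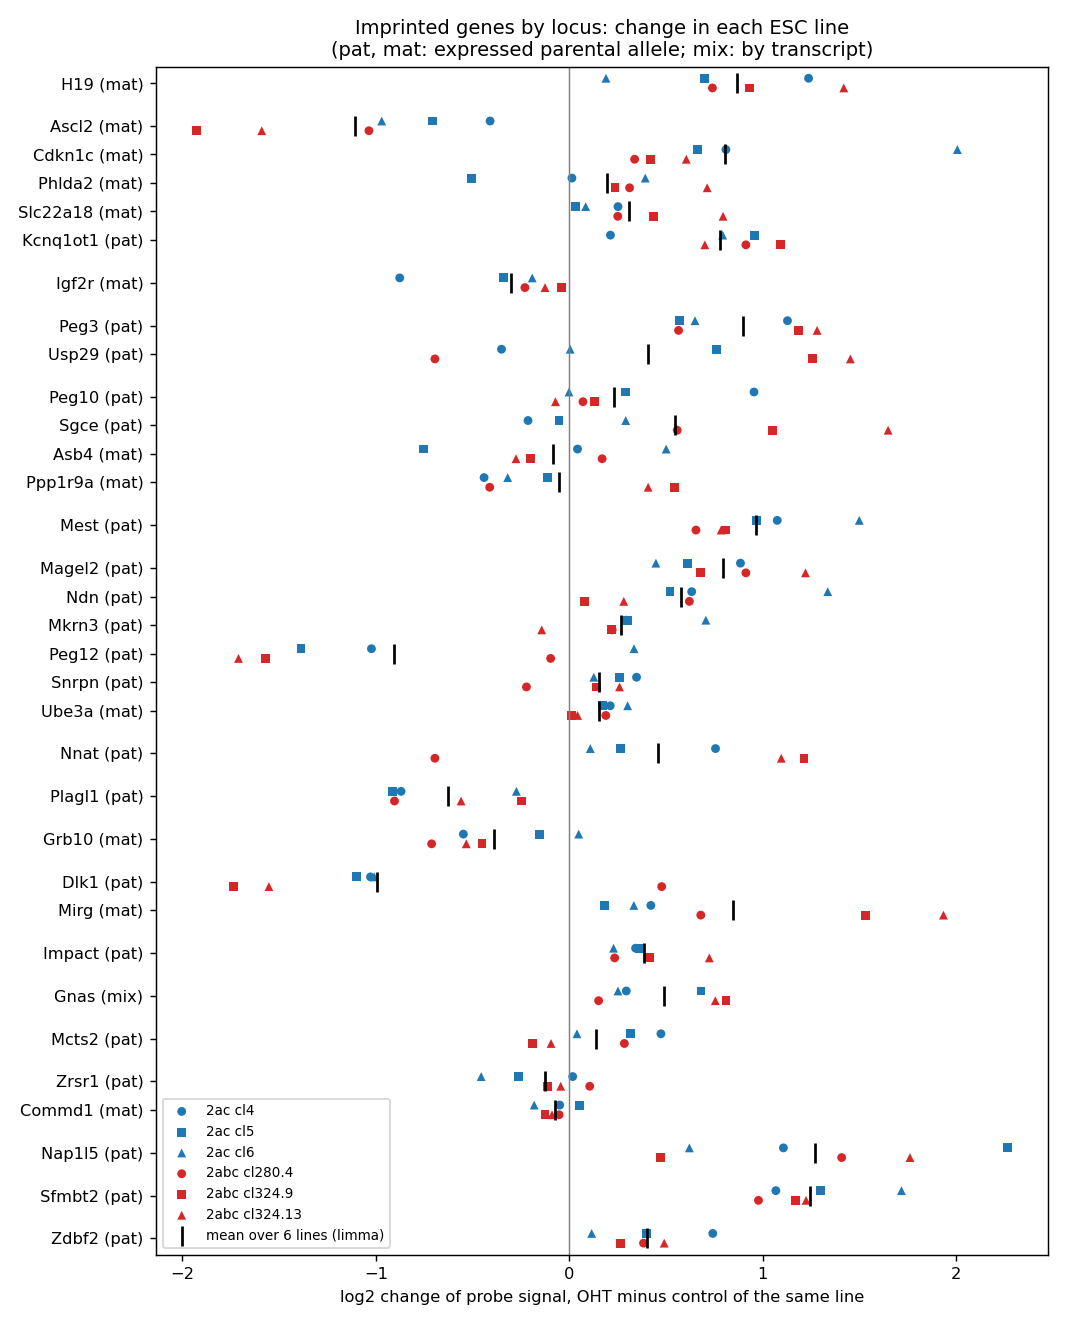
Log2 change, OHT minus control, of the 33 tested imprinted genes, grouped by locus on the other axis; each point is 1 ESC line, coloured by genotype, and the bar is the mean over the 6 lines. Sfmbt2, Mest, Peg3 and Magel2 have all 6 points above 0, and Ascl2 and Plagl1 have all 6 below 0.

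Mest, also called Peg1, encodes a protein of the alpha/beta-hydrolase fold and is expressed from the paternal copy on chromosome 6. Log2 levels of Mest in the 2ac lines were 1.71, 1.84 and 2.09 in control and 2.79, 2.81 and 3.59 in OHT cultures, and in the 2abc lines 1.55, 1.35 and 2.17 in control and 2.20, 2.15 and 2.95 in OHT cultures. In 2ac every OHT level was higher than every control level, while in 2abc the control of cl324.13 was as high as the OHT cultures of the other lines, although it too had a higher OHT level. For Mest the log2 change was 1.18 (SE 0.12, adjusted p = 0.00671) in 2ac, 0.75 (SE 0.12, adjusted p = 0.0151) in 2abc and, over the 6 lines, 0.96 (SE 0.08, adjusted p = 0.00176). Its other 2 probes were called higher over the 6 lines as well. Mest lost its call in 2abc without cl324.9 (adjusted p = 0.0972) or cl324.13 (adjusted p = 0.102). The 2ac call passed in 16 of 16 alternative analyses, and the call over the 6 lines in 15 of 15.

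Sfmbt2, a Polycomb protein with MBT repeats that is expressed from the paternal copy on chromosome 2, rose in every line. Log2 levels of Sfmbt2 in the 2ac lines were 0.29, 0.22 and 0.37 in control and 1.36, 1.51 and 2.09 in OHT cultures, and in the 2abc lines -0.16, -0.03 and -0.20 in control and 0.82, 1.14 and 1.02 in OHT cultures. All OHT levels lay above all control levels in both genotypes, and the highest was that of cl6. For Sfmbt2 the log2 change was 1.36 (SE 0.14, adjusted p = 0.00654) in 2ac, 1.12 (SE 0.14, adjusted p = 0.00902) in 2abc and, over the 6 lines, 1.24 (SE 0.10, adjusted p = 0.00128). A second, dimmer Sfmbt2 probe was not called (adjusted p = 0.221 over the 6 lines). Sfmbt2 lost its call in 2ac without cl5 (adjusted p = 0.0558), and in 2abc without cl324.9 (adjusted p = 0.0698) or cl324.13 (adjusted p = 0.0754).

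**Figure D2:**
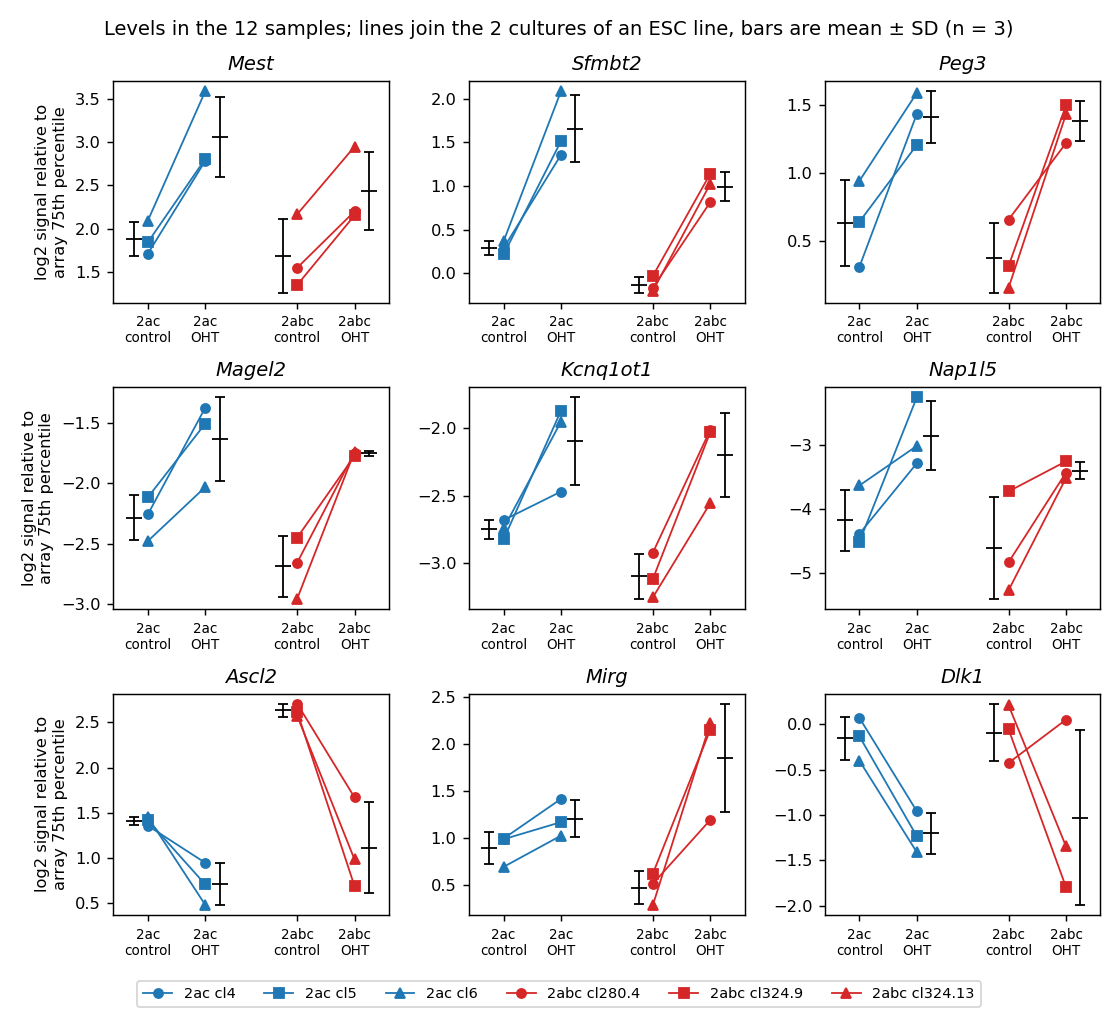
Log2 levels in the 12 samples for 9 imprinted genes (Mest, Sfmbt2, Peg3, Magel2, Kcnq1ot1, Nap1l5, Ascl2, Mirg and Dlk1); lines join the control and OHT culture of an ESC line, and bars are mean ± SD of the 3 lines of a group. Within each genotype, Sfmbt2, Peg3, Magel2 and Kcnq1ot1 (its accession-matched probe) are higher in all OHT than in all control cultures, and Ascl2 is lower.

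At the Peg3 locus on chromosome 7 the zinc-finger gene Peg3 is expressed from the paternal copy, as is Usp29, a deubiquitinase gene that starts beside it in the opposite direction. Log2 levels of Peg3 in the 2ac lines were 0.31, 0.64 and 0.94 in control and 1.44, 1.21 and 1.59 in OHT cultures, and in the 2abc lines 0.66, 0.32 and 0.16 in control and 1.22, 1.50 and 1.44 in OHT cultures. The OHT levels lay above all control levels in both genotypes, by the narrowest margin in 2ac, where the control of cl6 was the highest control. For Peg3 the log2 change was 0.78 (SE 0.18, adjusted p = 0.0436) in 2ac, 1.01 (SE 0.18, adjusted p = 0.0189) in 2abc and, over the 6 lines, 0.89 (SE 0.13, adjusted p = 0.00555). A second Peg3 probe was called higher over the 6 lines too. Peg3 lost its call in 2ac when any line except cl280.4 was left out (adjusted p of 0.0666 to 0.18), and in 2abc without cl324.9 (adjusted p = 0.114) or cl324.13 (adjusted p = 0.119).

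Log2 levels of Usp29 in the 2ac lines were -3.79, -4.48 and -4.12 in control and -4.14, -3.72 and -4.11 in OHT cultures, and in the 2abc lines -3.80, -4.62 and -4.59 in control and -4.50, -3.36 and -3.14 in OHT cultures. Usp29 was dim, above background on 9 of 13 arrays, and its groups overlapped in both genotypes. Only in the OHT cultures of 2abc was it above background on every array, so it entered the tests only through that group. For Usp29 the log2 change of 0.40 (SE 0.32, adjusted p = 0.39) over the 6 lines did not pass, and its SE was more than that of Peg3 at 0.13. Zim1, a maternally expressed zinc-finger gene of the locus, was above background on no array. Of the 10 neighbouring genes tested around the locus, 0 were called higher and 2 lower over the 6 lines. Aurkc, a kinase of germ cells, fell by 2.30 on the log2 scale (SE 0.14, adjusted p = 0.000727). It was lower in 6 of 6 lines and was chosen after its values were seen.

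In the Snrpn domain on chromosome 7, the region of the Prader-Willi and Angelman syndromes in humans, Magel2 and Ndn encode proteins of the MAGE family that are expressed from the paternal copy. Log2 levels of Magel2 in the 2ac lines were -2.26, -2.12 and -2.48 in control and -1.37, -1.50 and -2.03 in OHT cultures, and in the 2abc lines -2.66, -2.45 and -2.96 in control and -1.75, -1.77 and -1.74 in OHT cultures. Each OHT level was higher than each control level of its genotype, and the 3 OHT levels in 2abc were close together. For Magel2 the log2 change was 0.65 (SE 0.14, adjusted p = 0.0354) in 2ac, 0.94 (SE 0.14, adjusted p = 0.0123) in 2abc and, over the 6 lines, 0.79 (SE 0.10, adjusted p = 0.00378). Magel2 lost its call in 2ac when any line except cl280.4 and cl324.13 was left out (adjusted p of 0.0506 to 0.157), and in 2abc without cl324.9 (adjusted p = 0.0575) or cl324.13 (adjusted p = 0.081).

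Log2 levels of Ndn in the 2ac lines were -1.03, -1.21 and -0.38 in control and -0.40, -0.69 and 0.95 in OHT cultures, and in the 2abc lines -1.09, -0.68 and -0.86 in control and -0.47, -0.60 and -0.58 in OHT cultures. The 2abc groups did not overlap, and in 2ac the control of cl6 was as high as the OHT culture of cl4, the OHT level of cl6 standing above the rest. For Ndn the log2 change was 0.83 (SE 0.19, adjusted p = 0.0426) in 2ac, 0.33 (SE 0.19, adjusted p = 0.281) in 2abc and, over the 6 lines, 0.58 (SE 0.13, adjusted p = 0.0238). Ndn lost its call in 2ac when any line except cl280.4 was left out (adjusted p of 0.0669 to 0.123), and over the 6 lines without cl4 (adjusted p = 0.0538), cl280.4 (adjusted p = 0.0565) or cl324.13 (adjusted p = 0.0721).

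The other 4 tested genes of the domain did not pass in any comparison with their main probe. Mkrn3 encodes a makorin RING-finger protein. Log2 levels of Mkrn3 in the 2ac lines were -1.03, -1.14 and -0.62 in control and -0.74, -0.84 and 0.08 in OHT cultures, and in the 2abc lines -1.09, -1.07 and -0.91 in control and -0.87, -0.85 and -1.05 in OHT cultures. Groups overlapped in both genotypes. For Mkrn3 the log2 change over the 6 lines was 0.27 (SE 0.09, adjusted p = 0.0729), while its second probe was called higher (adjusted p = 0.00943). Peg12 encodes a GSK3-binding protein of the Frat family. Log2 levels of Peg12 in the 2ac lines were 0.68, 0.52 and 0.72 in control and -0.35, -0.86 and 1.05 in OHT cultures, and in the 2abc lines -0.14, 0.35 and 0.41 in control and -0.23, -1.22 and -1.30 in OHT cultures. Its OHT level was lower in 5 of 6 lines, with cl6 the exception, and only the 2abc groups did not overlap. For Peg12 the log2 change over the 6 lines was -0.91 (SE 0.30, adjusted p = 0.074).

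Snrpn encodes the SmN splicing protein. Log2 levels of Snrpn in the 2ac lines were 3.08, 3.14 and 3.25 in control and 3.43, 3.40 and 3.37 in OHT cultures, and in the 2abc lines 3.21, 3.01 and 2.92 in control and 2.99, 3.15 and 3.17 in OHT cultures. The 2ac groups did not overlap, although the change was small. For Snrpn the log2 change over the 6 lines was 0.15 (SE 0.08, adjusted p = 0.218). Ube3a, the ubiquitin ligase gene of the domain, is known to be imprinted in neurons only. Log2 levels of Ube3a in the 2ac lines were 0.14, 0.23 and 0.27 in control and 0.35, 0.40 and 0.57 in OHT cultures, and in the 2abc lines 0.30, 0.32 and 0.13 in control and 0.49, 0.33 and 0.18 in OHT cultures. The level was higher after OHT in 6 of 6 lines, and the 2ac groups did not overlap. For Ube3a the log2 change over the 6 lines was 0.15 (SE 0.06, adjusted p = 0.0892). Among 10 neighbours of the domain, 2 were called higher and 1 lower over the 6 lines. Otud7a, a deubiquitinase gene next to the domain, changed by 1.49 (SE 0.21, adjusted p = 0.00581) over the 6 lines, on the log2 scale. It was above background on every OHT array but on 2 of 3 control arrays in 2ac and 1 of 3 in 2abc. It thus entered the tests only through its OHT cultures, and the size of this change is not well measured. Otud7a was chosen after its values were seen.

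Nap1l5 is a retrogene of the nucleosome assembly family that lies within Herc3 on chromosome 6 and is expressed from the paternal copy. Log2 levels of Nap1l5 in the 2ac lines were -4.39, -4.52 and -3.63 in control and -3.29, -2.25 and -3.01 in OHT cultures, and in the 2abc lines -4.84, -3.73 and -5.28 in control and -3.43, -3.25 and -3.52 in OHT cultures. The OHT levels were above all control levels in both genotypes. Its probe was well above background on every OHT array, but on 1 of 3 control arrays in each genotype, so that it entered the tests only through its OHT cultures and its control levels, and with them the size of its change, are not well measured. For Nap1l5 the log2 change was 1.33 (SE 0.37, adjusted p = 0.0691) in 2ac, 1.21 (SE 0.37, adjusted p = 0.0727) in 2abc and, over the 6 lines, 1.27 (SE 0.26, adjusted p = 0.0167). Nap1l5 lost its call over the 6 lines without cl324.13 (adjusted p = 0.0577). It did not enter the analysis restricted to probes bright on every array. Of 10 neighbours 5 were called higher and 0 lower over the 6 lines. Atoh1, a bHLH factor gene of neural and sensory cells, was above background on 0 of 3 control arrays and on every OHT array of each genotype. It thus entered the tests only through its OHT cultures. Its signal was at least 3.05-fold higher in 2ac and at least 2.72-fold higher in 2abc, and these bounds were not tested. Each bound sets the OHT mean against the dimmest signal well above background on the control arrays, or the probe's own where that was higher. Atoh1 was chosen after its values were seen.

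Zdbf2, a zinc-finger gene of chromosome 1 that is expressed from the paternal copy, had small upward changes. Log2 levels of Zdbf2 in the 2ac lines were -0.93, -0.52 and -0.36 in control and -0.19, -0.12 and -0.25 in OHT cultures, and in the 2abc lines -1.23, -0.62 and -0.87 in control and -0.84, -0.36 and -0.38 in OHT cultures. The level was higher after OHT in 6 of 6 lines, and the 2ac groups did not overlap while the 2abc groups did. For Zdbf2 the log2 change was 0.42 (SE 0.13, adjusted p = 0.0941) in 2ac, 0.38 (SE 0.13, adjusted p = 0.1) in 2abc and, over the 6 lines, 0.40 (SE 0.09, adjusted p = 0.0248). A second Zdbf2 probe was called higher too. Zdbf2 lost its call over the 6 lines when any line except cl6 was left out (adjusted p of 0.0542 to 0.0884). Its neighbours numbered 10, of which 5 were called higher and 0 lower over the 6 lines. Gpr1, a receptor gene whose locus is known to share the imprint of Zdbf2, changed by 2.34 (SE 0.21, adjusted p = 0.00199) over the 6 lines. It was above background on every OHT array but only 1 of 3 control arrays in each genotype, and entered the tests only through its OHT cultures. Its control levels are close to background, and the size of its change is not well measured. Nrp2, a semaphorin and VEGF co-receptor gene, changed by 1.49 (SE 0.12, adjusted p = 0.0015), and Adam23, a gene of a membrane disintegrin protein, by 1.50 (SE 0.21, adjusted p = 0.00531). These 3 log2 changes were upward in 6 of 6 lines each, and the genes were chosen after their values were seen.

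Impact, an inhibitor of the kinase Gcn2, is expressed from the paternal copy on chromosome 18. Log2 levels of Impact in the 2ac lines were 3.79, 4.19 and 4.18 in control and 4.13, 4.55 and 4.41 in OHT cultures, and in the 2abc lines 3.69, 4.33 and 3.55 in control and 3.93, 4.75 and 4.27 in OHT cultures. Each line had a higher OHT than control level, and the groups overlapped in both genotypes, the control level being highest in cl324.9. For Impact the log2 change was 0.31 (SE 0.11, adjusted p = 0.126) in 2ac, 0.46 (SE 0.11, adjusted p = 0.0402) in 2abc and, over the 6 lines, 0.38 (SE 0.08, adjusted p = 0.0164). A second Impact probe was not called (adjusted p = 0.158 over the 6 lines). Impact lost its call in 2abc when any line except cl280.4 was left out (adjusted p of 0.0512 to 0.2), and over the 6 lines without cl4 (adjusted p = 0.0588), cl5 (adjusted p = 0.0631) or cl324.9 (adjusted p = 0.0548).

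Plagl1, also called Zac1, encodes a zinc-finger transcription factor of chromosome 10 and was the paternally expressed gene called lower over the 6 lines on its main probe. Log2 levels of Plagl1 in the 2ac lines were 4.16, 4.29 and 4.94 in control and 3.29, 3.37 and 4.67 in OHT cultures, and in the 2abc lines 4.49, 4.67 and 4.75 in control and 3.58, 4.42 and 4.19 in OHT cultures. The level was lower after OHT in 6 of 6 lines. The 2abc groups did not overlap, and in 2ac the OHT level of cl6 was higher than the controls of cl4 and cl5. For Plagl1 the log2 change was -0.69 (SE 0.18, adjusted p = 0.0585) in 2ac, -0.57 (SE 0.18, adjusted p = 0.077) in 2abc and, over the 6 lines, -0.63 (SE 0.12, adjusted p = 0.0154). Of its other 3 probes, 1 was called lower (adjusted p = 0.0157) and 2 were not (adjusted p = 0.0659 and 0.723), so the probes of this gene disagree. Plagl1 lost its call over the 6 lines without cl4 (adjusted p = 0.0559), cl5 (adjusted p = 0.059) or cl324.13 (adjusted p = 0.0541).

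In the Kcnq1 domain on chromosome 7 the paternal copy is silenced by Kcnq1ot1, a long noncoding RNA that is read antisense to Kcnq1, and the protein-coding members of the domain are expressed from the maternal copy. Log2 levels of Kcnq1ot1 in the 2ac lines were -2.68, -2.82 and -2.74 in control and -2.47, -1.87 and -1.95 in OHT cultures, and in the 2abc lines -2.92, -3.12 and -3.25 in control and -2.01, -2.03 and -2.56 in OHT cultures. The OHT levels lay above all control levels in both genotypes. For Kcnq1ot1 the log2 change was 0.65 (SE 0.16, adjusted p = 0.0527) in 2ac, 0.90 (SE 0.16, adjusted p = 0.0194) in 2abc and, over the 6 lines, 0.78 (SE 0.11, adjusted p = 0.00624). Kcnq1ot1 lost its call in 2abc without cl324.9 (adjusted p = 0.117) or cl324.13 (adjusted p = 0.0905). A second probe with this accession did not pass the brightness filter. The array also holds 5 probes that it names KCNQ1ot1 itself, with no accession, and the brightest of them, above background on 13 of 13 arrays, had log2 levels of 0.67 to 1.14 in control and 0.50 to 1.32 in OHT cultures. The change by line on this probe went from -0.23 to 0.18, and over the 6 lines it was -0.01 (SE 0.08, adjusted p = 0.95). The probes thus disagree, and had this one stood for Kcnq1ot1, 9 members would have been called higher in 2abc and 14 over the 6 lines. Another was above background on 11 arrays, with changes from -0.62 to 0.63, and the other 3 on 1, 0 and 0 arrays.

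Cdkn1c encodes the CDK inhibitor p57, a maternally expressed brake on growth. Log2 levels of Cdkn1c in the 2ac lines were 0.55, 0.16 and 0.29 in control and 1.36, 0.82 and 2.29 in OHT cultures, and in the 2abc lines 0.97, 0.47 and 0.52 in control and 1.31, 0.89 and 1.12 in OHT cultures. In 2ac the OHT levels were above all controls, with cl6 far above the others, and in 2abc the control of cl280.4 was above the OHT level of cl324.9. For Cdkn1c the log2 change was 1.16 (SE 0.26, adjusted p = 0.0418) in 2ac, 0.45 (SE 0.26, adjusted p = 0.281) in 2abc and, over the 6 lines, 0.81 (SE 0.18, adjusted p = 0.0235). Cdkn1c lost its call in 2ac when any line except cl6 was left out (adjusted p of 0.0575 to 0.111), and over the 6 lines without cl324.9 (adjusted p = 0.07) or cl324.13 (adjusted p = 0.0797). Slc22a18, a maternally expressed transporter gene next to it, was higher after OHT in 6 of 6 lines. Log2 levels of Slc22a18 in the 2ac lines were 0.45, 0.58 and 0.59 in control and 0.70, 0.61 and 0.68 in OHT cultures, and in the 2abc lines 1.43, 0.73 and 0.55 in control and 1.68, 1.17 and 1.35 in OHT cultures. The 2ac groups did not overlap, but by little. For Slc22a18 the log2 change was 0.12 (SE 0.12, adjusted p = 0.576) in 2ac, 0.49 (SE 0.12, adjusted p = 0.0429) in 2abc and, over the 6 lines, 0.31 (SE 0.09, adjusted p = 0.0436). Slc22a18 lost its call in 2abc when any line except cl280.4 was left out (adjusted p of 0.0582 to 0.202), and over the 6 lines when any line except cl280.4 was left out (adjusted p of 0.0763 to 0.132).

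Phlda2, a maternally expressed gene that limits growth of the placenta, did not pass. Log2 levels of Phlda2 in the 2ac lines were 0.26, 0.31 and -0.20 in control and 0.27, -0.19 and 0.20 in OHT cultures, and in the 2abc lines 0.76, -0.24 and -0.33 in control and 1.07, -0.01 and 0.38 in OHT cultures. Control and OHT levels overlapped in both genotypes. For Phlda2 the log2 change over the 6 lines was 0.19 (SE 0.13, adjusted p = 0.328).

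Ascl2, a bHLH factor gene of the trophoblast at the other end of the domain, was lower after OHT in 6 of 6 lines. Log2 levels of Ascl2 in the 2ac lines were 1.36, 1.42 and 1.45 in control and 0.95, 0.71 and 0.48 in OHT cultures, and in the 2abc lines 2.71, 2.62 and 2.58 in control and 1.67, 0.69 and 0.99 in OHT cultures. No OHT level reached a control level of its genotype, and the 2abc controls were all higher than the 2ac controls. For Ascl2 the log2 change was -0.70 (SE 0.19, adjusted p = 0.0675) in 2ac, -1.52 (SE 0.19, adjusted p = 0.00934) in 2abc and, over the 6 lines, -1.11 (SE 0.13, adjusted p = 0.0038). Ascl2 lost its call in 2abc without cl324.9 (adjusted p = 0.061) or cl324.13 (adjusted p = 0.0754). Between untreated cultures, the 2abc lines were higher than the 2ac lines by 1.22 (SE 0.08, adjusted p = 0.0373) on the log2 scale in a limma fit of the 6 controls, where 0.00871% of all features were called, 0.00435% in each direction. Ascl2 lost its call between the controls when any line except cl6 was left out (adjusted p of 0.107 to 0.174). Scaled by the median of each array, the difference between the controls gave an adjusted p of 0.0657. All 2abc controls and cl6 lay on 1 slide, and with the slide as a block the adjusted p was 0.389. Tspan32, the next gene of the domain and listed as imprinted, changed by -0.82 (SE 0.17, adjusted p = 0.0168) over the 6 lines, on the log2 scale, and was lower in 6 of 6 lines.

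**Figure D3:**
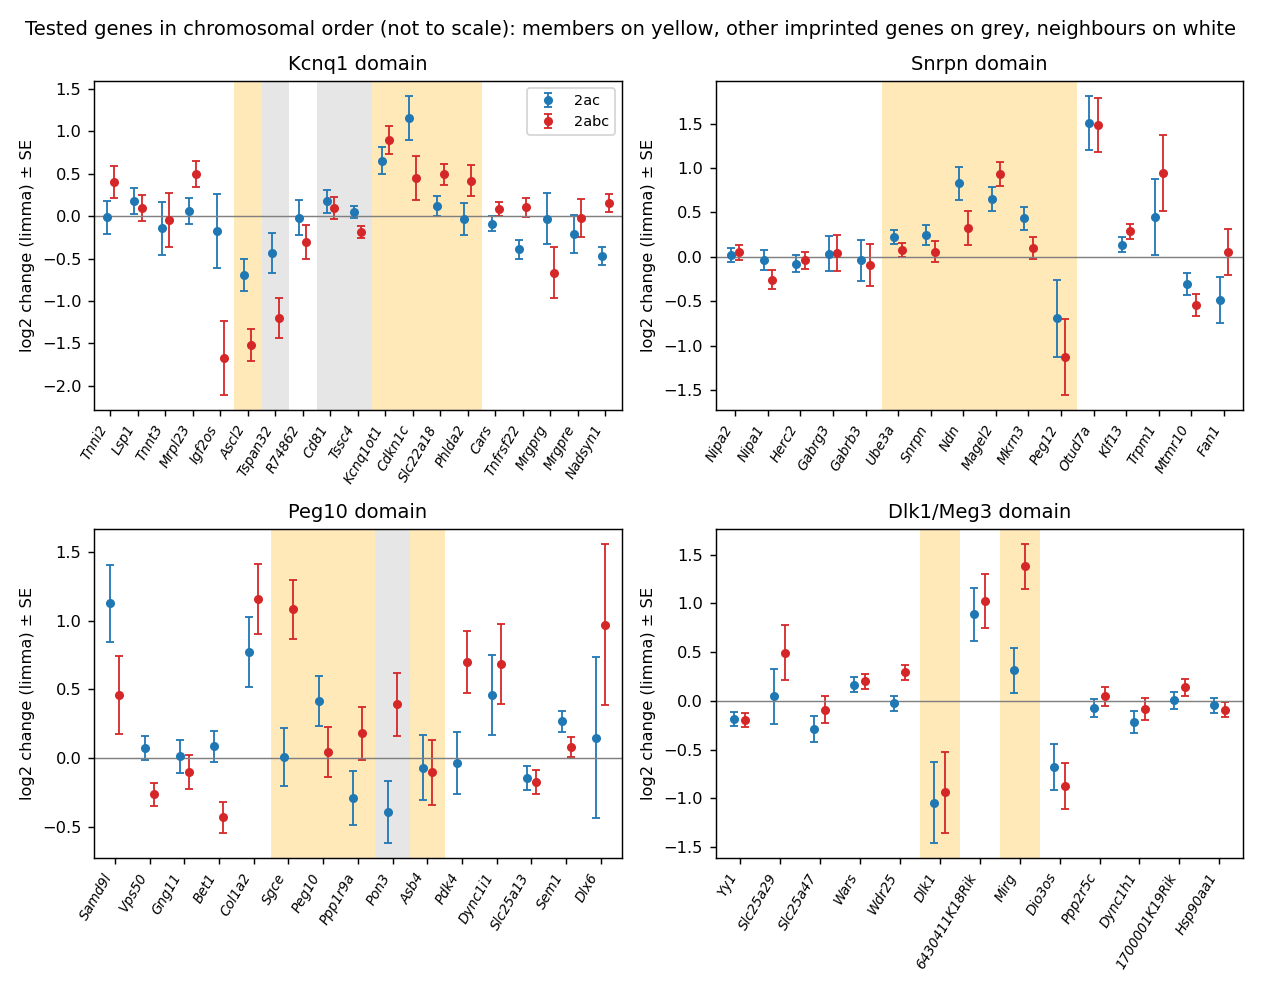
Log2 change ± SE in 2ac and 2abc of the tested genes of the Kcnq1, Snrpn, Peg10 and Dlk1/Meg3 domains in chromosomal order, not to scale; imprinted genes of the set stand on yellow, other imprinted genes on grey and neighbours on white. The neighbours include transcripts of the domains that are not on the imprinted lists, such as Dio3os. In the Kcnq1 domain Ascl2 and Tspan32 lie below 0 at one end and Kcnq1ot1 (its accession-matched probe), Cdkn1c and Slc22a18 above 0 further along.

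At the Igf2/H19 locus on chromosome 7, H19 is a long noncoding RNA of the maternal copy and Igf2 the growth factor gene of the paternal copy. Log2 levels of H19 in the 2ac lines were -2.27, -1.85 and -2.26 in control and -1.03, -1.15 and -2.07 in OHT cultures, and in the 2abc lines -2.07, -1.95 and -2.02 in control and -1.33, -1.02 and -0.60 in OHT cultures. The 2abc groups did not overlap, while in 2ac the OHT level of cl6 was below the control level of cl5. For H19 the log2 change was 0.71 (SE 0.22, adjusted p = 0.0948) in 2ac, 1.03 (SE 0.22, adjusted p = 0.0301) in 2abc and, over the 6 lines, 0.87 (SE 0.16, adjusted p = 0.0115). The probe is one of 5 that the array names H19 itself, without an accession, and the other 4 were not tested separately. Of these, 1 was higher after OHT in 6 of 6 lines, 2 in 5 of 6, and 1, above background on 13 of 13 arrays, in 4 of 6, with log2 changes of -0.56 in cl6 and -1.07 in cl324.13, so the probes of H19 disagree in single lines. H19 lost its call in 2abc without cl5 (adjusted p = 0.0625), cl324.9 (adjusted p = 0.13) or cl324.13 (adjusted p = 0.167). Igf2 was well above background on 4 of 13 arrays and was not tested, its log2 levels ranging from -4.76 to -3.99 in control and from -5.46 to -4.01 in OHT cultures. Igf2os, an antisense transcript of Igf2, had a log2 change of -0.93 (SE 0.31, adjusted p = 0.0744) over the 6 lines, which did not pass, and was chosen after its values were seen.

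Igf2r, the receptor that clears IGF2 and is expressed from the maternal copy of chromosome 17, had log2 levels of 1.77 to 2.25 in control and 1.27 to 2.12 in OHT cultures. It was lower in 6 of 6 lines, with overlapping groups. For Igf2r the log2 change over the 6 lines was -0.30 (SE 0.10, adjusted p = 0.0727), which did not pass. Airn, the noncoding RNA that silences Igf2r on the paternal copy, was above background on 13 of 13 arrays and had a log2 change of 0.07 (SE 0.09, adjusted p = 0.611).

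In the Peg10 domain on chromosome 6, Sgce, the gene of a sarcoglycan, is expressed from the paternal copy. Log2 levels of Sgce in the 2ac lines were -1.57, -1.34 and -1.18 in control and -1.78, -1.39 and -0.89 in OHT cultures, and in the 2abc lines -2.24, -0.98 and -1.55 in control and -1.68, 0.07 and 0.10 in OHT cultures. In 2abc the 2 lines cl324.9 and cl324.13 were far higher after OHT, whereas the OHT level of cl280.4 was below their controls. For Sgce the log2 change was 0.01 (SE 0.21, adjusted p = 0.988) in 2ac, 1.08 (SE 0.21, adjusted p = 0.0244) in 2abc and, over the 6 lines, 0.55 (SE 0.15, adjusted p = 0.0423). Sgce lost its call in 2abc without cl5 (adjusted p = 0.0527), cl324.9 (adjusted p = 0.12) or cl324.13 (adjusted p = 0.108), and over the 6 lines when any line except cl280.4 was left out (adjusted p of 0.0786 to 0.109). Peg10, a gene derived from a retrotransposon and needed in the placenta, starts beside Sgce in the opposite direction. Log2 levels of Peg10 in the 2ac lines were -4.30, -3.70 and -3.94 in control and -3.34, -3.41 and -3.94 in OHT cultures, and in the 2abc lines -4.68, -4.10 and -4.43 in control and -4.61, -3.97 and -4.50 in OHT cultures. It was above background on 10 of 13 arrays, and its groups overlapped in both genotypes. For Peg10 the log2 change over the 6 lines was 0.23 (SE 0.13, adjusted p = 0.239).

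The maternally expressed members of the domain did not pass with their main probes. Asb4 encodes a protein with ankyrin repeats and a SOCS box. Log2 levels of Asb4 in the 2ac lines were -3.15, -2.95 and -3.67 in control and -3.11, -3.71 and -3.17 in OHT cultures, and in the 2abc lines -3.48, -3.42 and -3.65 in control and -3.31, -3.62 and -3.93 in OHT cultures. Its groups overlapped, with 11 of 13 arrays above background. For Asb4 the log2 change over the 6 lines was -0.09 (SE 0.17, adjusted p = 0.739). Ppp1r9a encodes neurabin, an actin-binding protein of neurons. Log2 levels of Ppp1r9a in the 2ac lines were -0.96, -1.03 and -1.42 in control and -1.40, -1.14 and -1.74 in OHT cultures, and in the 2abc lines -0.86, -1.14 and -0.99 in control and -1.27, -0.60 and -0.59 in OHT cultures. In 2abc it was higher after OHT in cl324.9 and cl324.13 and lower in cl280.4. For Ppp1r9a the log2 change in 2abc was 0.18 (SE 0.19, adjusted p = 0.569), while its second probe gave 0.97 (adjusted p = 0.00858), so its probes disagree. Of 10 neighbours 2 were called higher and 0 lower over the 6 lines. Col1a2, a collagen gene next to Sgce and a fibroblast marker, had a log2 change of 1.16 (SE 0.26, adjusted p = 0.0321) in 2abc, where the fibroblast markers summed to 4.21 to 4.98 in control and 3.86 to 4.01 in OHT cultures. It was chosen after its values were seen, and the part of fibroblasts was not tested.

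In the Dlk1/Meg3 domain on chromosome 12 the maternal copy expresses the noncoding RNAs Meg3, Rian and Mirg, which are read in the same direction, and the paternal copy expresses Dlk1, a membrane protein related to Notch ligands. Log2 levels of Mirg in the 2ac lines were 0.99, 0.98 and 0.69 in control and 1.41, 1.17 and 1.02 in OHT cultures, and in the 2abc lines 0.51, 0.62 and 0.28 in control and 1.19, 2.15 and 2.22 in OHT cultures. All OHT levels were above all control levels of their genotype, with cl324.9 and cl324.13 well above the rest. For Mirg the log2 change was 0.31 (SE 0.23, adjusted p = 0.433) in 2ac, 1.38 (SE 0.23, adjusted p = 0.0161) in 2abc and, over the 6 lines, 0.85 (SE 0.16, adjusted p = 0.0136). Of the microRNAs printed above, miR-453 and miR-496a-5p lie within this transcript. Mirg lost its call in 2abc without cl324.9 (adjusted p = 0.0999) or cl324.13 (adjusted p = 0.0874), and over the 6 lines without cl324.9 (adjusted p = 0.0512).

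Log2 levels of Dlk1 in the 2ac lines were 0.07, -0.13 and -0.40 in control and -0.96, -1.23 and -1.41 in OHT cultures, and in the 2abc lines -0.43, -0.06 and 0.21 in control and 0.05, -1.79 and -1.35 in OHT cultures. After OHT, Dlk1 was lower in all lines but cl280.4, where it was higher, and the 2ac groups did not overlap. For Dlk1 the log2 change over the 6 lines was -0.99 (SE 0.29, adjusted p = 0.0524), which did not pass. Its second probe was called lower (-1.35, adjusted p = 0.0145), so the call depends on the probe. Of the transcripts between them, 6430411K18Rik had a log2 change of 0.96 (SE 0.19, adjusted p = 0.0164) over the 6 lines, and Dio3os, at the far end of the domain, one of -0.77 (SE 0.17, adjusted p = 0.0196). Both were chosen after their values were seen. Mirg and 6430411K18Rik were thus called higher and Dio3os lower within the same domain.

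Grb10, an adaptor protein that restrains insulin and growth factor signalling, is expressed from the maternal copy of chromosome 11 in most tissues. Log2 levels of Grb10 in the 2ac lines were -0.46, -0.58 and -0.98 in control and -1.0, -0.74 and -0.94 in OHT cultures, and in the 2abc lines -0.21, -0.40 and -0.37 in control and -0.92, -0.85 and -0.90 in OHT cultures. In 2abc the OHT levels lay below all control levels, and in 2ac the control of cl6 was as low as the OHT levels. For Grb10 the log2 change was -0.22 (SE 0.13, adjusted p = 0.335) in 2ac, -0.57 (SE 0.13, adjusted p = 0.036) in 2abc and, over the 6 lines, -0.39 (SE 0.09, adjusted p = 0.0259). Grb10 lost its call in 2abc when any line except cl4 and cl6 was left out (adjusted p of 0.0702 to 0.164), and over the 6 lines when any line except cl6 was left out (adjusted p of 0.0576 to 0.0788). Under quantile normalisation its call in 2abc was lost (adjusted p = 0.0601).

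Gnas encodes the alpha subunit of the stimulatory G protein, and its locus on chromosome 2 also makes maternally and paternally expressed transcripts. Log2 levels of Gnas in the 2ac lines were 5.06, 4.93 and 4.95 in control and 5.35, 5.61 and 5.20 in OHT cultures, and in the 2abc lines 5.31, 5.22 and 5.28 in control and 5.46, 6.03 and 6.03 in OHT cultures. It was higher after OHT in 6 of 6 lines, and the groups did not overlap in either genotype. For Gnas the log2 change was 0.41 (SE 0.16, adjusted p = 0.159) in 2ac, 0.57 (SE 0.16, adjusted p = 0.0605) in 2abc and, over the 6 lines, 0.49 (SE 0.11, adjusted p = 0.0249). Gnas lost its call over the 6 lines when any line except cl6 and cl280.4 was left out (adjusted p of 0.0628 to 0.0868). The probe that stands for Gnas was the brightest of 3, and which of its transcripts it reads was not tested.

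The remaining members did not pass. Nnat is the paternally expressed gene of neuronatin on chromosome 2. Nnat had log2 levels of -2.88 to -1.86 in control and -3.21 to -1.60 in OHT cultures, and a log2 change over the 6 lines of 0.46 (SE 0.27, adjusted p = 0.262). Mcts2 is a paternally expressed retrogene within H13. Mcts2 had log2 levels of 3.52 to 4.25 in control and 3.66 to 4.29 in OHT cultures, and a log2 change over the 6 lines of 0.14 (SE 0.09, adjusted p = 0.321). Zrsr1, a paternally expressed retrogene of a splicing factor, lies within Commd1, a maternally expressed gene of a copper-handling protein. Zrsr1 had log2 levels of 1.99 to 2.50 in control and 1.88 to 2.17 in OHT cultures, and a log2 change over the 6 lines of -0.13 (SE 0.08, adjusted p = 0.287). Commd1 had log2 levels of 4.45 to 4.73 in control and 4.42 to 4.67 in OHT cultures, and a log2 change over the 6 lines of -0.07 (SE 0.06, adjusted p = 0.376). Cross-hybridisation of the retrogene probes with their parent genes was not tested. Inpp5f, an inositol phosphatase gene with an imprinted transcript, was above background on 2 of 13 arrays, and Rasgrf1, a Ras exchange factor gene, on none with its main probe and on 1 with its other probe, so neither was tested.

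The test of the 2abc change against the 2ac change called 0 of the 33 genes in limma, where 0.0% of all features were called, and 4 had an unadjusted p under 0.05. The 2abc minus 2ac difference in log2 change was 1.08 for Sgce (SE 0.30, adjusted p = 0.368), 1.07 for Mirg (SE 0.32, adjusted p = 0.38), -0.82 for Ascl2 (SE 0.27, adjusted p = 0.399) and -0.43 for Mest (SE 0.17, adjusted p = 0.442). The 8 members called in 2abc alone and the 2 called in 2ac alone were therefore not shown to respond differently in the genotypes. Among the untreated cultures Ascl2 was the member called, and 8 of the 33 had an unadjusted p under 0.05, of which the smallest after Ascl2 was that of Sfmbt2, whose log2 level was lower in the 2abc controls by 0.42 (SE 0.09, adjusted p = 0.0761).

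Genes named in the lists of imprinted genes were left out as neighbours, but other transcripts of imprinted loci, such as Gpr1, Dio3os and Igf2os, were not. Around all loci, 192 neighbouring genes were tested, up to 5 on each side, with such transcripts counted. Over the 6 lines 36 were called higher and 17 lower, with a median log2 change of -0.01, beside 14.0% higher and 14.7% lower of all features. In 2ac 17 were called higher and 6 lower, beside 5.75% and 6.5% of all features. In 2abc the numbers were 23 and 12, beside 8.59% and 9.03% of all features. The loci of Zdbf2 and Nap1l5 had 5 neighbours called higher each, that of Impact 4, those of Plagl1 and Sfmbt2 3 each, those of Igf2r/Airn, Peg10, Snrpn, Nnat, Gnas, Zrsr1/Commd1 and Rasgrf1 2 each, and those of Mest and Inpp5f 1 each. Called lower were 3 neighbours at Grb10, and 2 each at Peg3, Dlk1/Meg3, Impact, Gnas and Mcts2/H13. The loci of Igf2r/Airn, Snrpn, Plagl1 and Zrsr1/Commd1 had 1 called lower each. Gpr1 is among the neighbours called higher at Zdbf2, and Dio3os among those called lower at Dlk1/Meg3.

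A second list held 42 other imprinted genes, of which 40 had a probe and 29 were tested. Of these, 0 were called higher in 2ac, 2abc or the mean of the 6 lines, where 5.75%, 8.59% and 14.0% of all features were. Called lower were 2, 4 and 6 in the same order (6.9%, 13.79% and 20.69%), where 6.5%, 9.03% and 14.7% of all features were. Their median log2 change over the 6 lines was -0.07. Ddc, the aromatic amino acid decarboxylase gene beside Grb10, had a log2 change of -1.10 (SE 0.28, adjusted p = 0.0601) in 2ac and -1.78 (SE 0.28, adjusted p = 0.015) in 2abc. Cobl, an actin nucleator gene on the other side of it, changed by -0.78 (SE 0.17, adjusted p = 0.0296) in 2abc. Qpct, a glutaminyl cyclase gene, was called lower in both genotypes, with log2 changes of -1.34 (SE 0.22, adjusted p = 0.0191) in 2ac and -1.09 (SE 0.22, adjusted p = 0.0254) in 2abc. Ampd3, an AMP deaminase gene, was called lower in 2ac with a log2 change of -1.16 (SE 0.18, adjusted p = 0.0185), and Tspan32, a tetraspanin gene, in 2abc with -1.20 (SE 0.24, adjusted p = 0.0245). Each of these 5 genes was lower in 6 of 6 lines.

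Among 30 genes of imprint maintenance and related chromatin factors, all tested, 1 was called higher and 3 lower in 2ac, and 2 higher and 11 lower in 2abc. Called in either direction were thus 13.33% of them in 2ac and 43.33% in 2abc, beside 12.3% and 17.6% of all features. Uhrf1, which brings DNMT1 to hemimethylated DNA, had log2 changes of -0.46 (SE 0.07, adjusted p = 0.018) in 2ac and -0.74 (SE 0.07, adjusted p = 0.00587) in 2abc. Hells, a chromatin remodeller needed for DNA methylation, had -0.49 (SE 0.07, adjusted p = 0.016) in 2ac and -0.63 (SE 0.07, adjusted p = 0.00853) in 2abc. Arid4a, a retinoblastoma-binding protein gene, had -0.45 (SE 0.10, adjusted p = 0.0402) in 2ac and -0.52 (SE 0.10, adjusted p = 0.0226) in 2abc. These 3 genes thus fell in both genotypes. Cbx1, the gene of HP1 beta, which binds methylated H3K9, had 0.01 (SE 0.11, adjusted p = 0.981) in 2ac and -0.66 (SE 0.11, adjusted p = 0.0167) in 2abc. Dnmt3b, a de novo DNA methyltransferase gene, was called higher in 2ac, with 0.68 (SE 0.11, adjusted p = 0.0204), and lower in 2abc, with -0.47 (SE 0.11, adjusted p = 0.0408), and the difference itself had an adjusted p of 0.305.

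The 3 factors Zfp57, Zfp445 and Trim28, which protect imprints after fertilisation, were chosen after their values were seen. Zfp57, whose protein binds the motif searched above, had a log2 change of 0.07 (SE 0.09, adjusted p = 0.632) over the 6 lines. Zfp445, a related KRAB zinc-finger gene, had -0.27 (SE 0.08, adjusted p = 0.0435), and Trim28, the co-repressor that both recruit, had -0.29 (SE 0.06, adjusted p = 0.0185), so that both were called lower and Zfp57 was not called. By genotype, Zfp445 had -0.11 (SE 0.11, adjusted p = 0.573) in 2ac and -0.43 (SE 0.11, adjusted p = 0.043) in 2abc, and Trim28 had -0.14 (SE 0.09, adjusted p = 0.339) in 2ac and -0.43 (SE 0.09, adjusted p = 0.0248) in 2abc, so neither was called in 2ac.

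**Figure D4:**
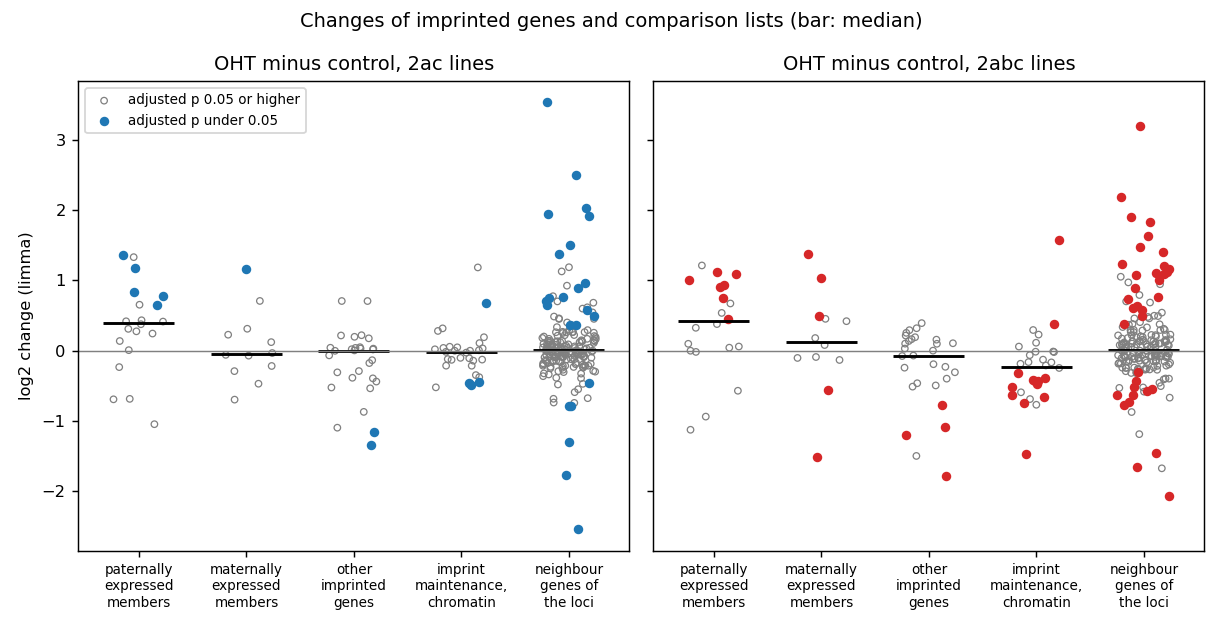
Log2 change in 2ac and in 2abc of the paternally and maternally expressed imprinted genes, the other imprinted genes, the maintenance and chromatin factors and the neighbouring genes; each point is a gene, filled where its adjusted p is under 0.05, and the bar is the median. The paternally expressed set has its median at 0.40 in 2ac and 0.42 in 2abc. In the separate list of other imprinted genes no gene is filled above 0. The neighbouring genes include Gpr1, Dio3os and Igf2os.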

How the data were processed

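Expression was measured in total RNA of 12 samples on 13 Agilent arrays with 1 dye, the OHT sample of line cl4 being on 2 arrays that were averaged. Per the file headers, the authors made the spot intensity values with Feature Extraction 11.0.1.1 from Agilent, with background subtracted and no scaling between arrays. The authors' deposited table of log2 values, called loess there, served as an alternative; limma is named in the submitters' processing notes, and its settings and the filter used for the table were not recorded in the labels or headers. Its columns correlated with log2 of the spot signals at r of at least 0.999 and had medians of 10.4 to 10.5. Control spots and 184 to 253 flagged outlier spots per array were left out. The 75th percentile of log2 processed signal (signals of 409 to 521) was subtracted on each array.

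Probes were named through their accession and RefSeq (GRCm38.p6), which gave 27656 of 55681 probes a symbol. The array's own positions are in another assembly and are not printed. A probe entered the tests if all arrays of 1 or more groups had it well above background, and the probe with the highest mean stood for a gene; H19 was matched by the name the array gives it. Promoter windows and microRNAs come from RefSeq tables of GRCm38.p6.

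The tests were made in R 4.3.3 by limma 3.58.1, calling lmFit and eBayes, from all 12 samples together. The ESC line was a block, since control and OHT cultures of a name are the same line, and each gene had 4 residual degrees of freedom. As a check of the pairing, deviations from the group means of the 2 cultures of a line correlated at 0.16 in cl4, 0.46 in cl5, 0.50 in cl6, 0.03 in cl280.4, -0.02 in cl324.9 and -0.01 in cl324.13. The 2abc and 2ac controls were compared among the 6 control samples without a block. The fit was also run on simulated data with independent noise and known changes, as a check of the code. Such data lack the dependence on single lines seen here, so that run does not bear on the calls. The members, lists and neighbours were chosen with earlier results of these data known. Values in every sample are given for members called in any comparison and for their bright locus mates; from the other lists up to 5 called genes with the smallest adjusted p are named. Alternatives changed the block, the scaling, the background correction, the probe filter, the source of values, the samples that share an estimate of spread, and the lines used.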

Additional observations from a re-analysis of the deposited data

How the results depend on the processing

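The numbers of imprinted genes called were 6 in 2ac, 12 in 2abc, 18 in the mean of all lines, 0 for the 2abc minus 2ac difference and 1 between the controls. Without a filter on dim probes they were 2, 5, 11, 0 and 0. With each genotype fitted alone, 3 passed in 2ac and 3 in 2abc, and from the authors' deposited table, which had no value for Magel2, Kcnq1ot1 and Nap1l5, 10 passed in 2ac. Leaving out 1 line at a time gave 1 to 7 in 2ac, 0 to 16 in 2abc, 9 to 19 in the mean of the lines and 0 to 1 between the controls, and the difference stayed at 0 with 2 to 8 members at an unadjusted p under 0.05 in limma. Ascl2, the gene called between the controls, left 0 calls there when arrays were scaled by the median (10 members at an unadjusted p under 0.05) or by quantiles (6), with the line as a random block in all 12 samples (4), or with the slide as a block (9), an alternative added after the data were seen; the cause was not tested. Scaling by the median moved the median of all features in that comparison from -0.05 to 0.26 log2.

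Control and OHT cultures were paired by line. With no replicate block the calls numbered 6 in 2ac, 9 in 2abc and 13 in the mean of the lines, of which 5, 8 and 12 were shared with the paired fit. In 2 of the 3 2abc lines the sample of the same line did not correlate best.

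Among the single genes, over all alternatives, the called change of Kcnq1ot1 turned its direction on the brightest probe named KCNQ1ot1, an alternative added after the data were seen, to -0.013 in 2abc and -0.0086 over the 6 lines, and no other called change did; 163 values lost a call, 54 gained one, and 2120 kept their side with the change moved by less than its error. Over all features the calls ranged from 911 to 3623 in 2ac, 930 to 4665 in 2abc and 4356 to 7158 in the mean of the lines, and from 0 to 289 between the controls, lines left out not counted; leaving out 1 line gave 157 to 3434, 218 to 4727, 3562 to 6708 and 0 to 133. The normexp alternative was run on the median signal, since the mean signal was not used here. Dim genes limit the data: 29 of the 33 tested were above background on every array, and 3 lines per genotype leave 4 residual degrees of freedom.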

Other observations

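Among the other probes matched to the members by accession, 15 of 17 that passed the brightness filter had a log2 change in the same direction over the 6 lines as the probe that stood for the gene.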
